A study of Mus musculus with 10 samples.

Results

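Sptssb and the other genes of serine palmitoyltransferase were followed in neutrophils sorted from mouse squamous cell carcinoma grafts. The 8 genes are Sptlc1, Sptlc2 and Sptlc3 for the large subunits, Sptssa and Sptssb for the small subunits, and Ormdl1, Ormdl2 and Ormdl3 for the regulators. They were found by symbol in the mouse GENCODE M21 annotation among 55385 mouse gene rows of the count table, and all 8 had a row. The set was chosen by the level of Sptssb, which had been seen to differ between the grafts in these libraries, so its values are given below as a description with no test. The question put to the data is whether the other members differ between the grafts as well.

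The 10 bulk RNA-seq libraries fall into 4 groups. Tumours were grown from parental Sox2low control cells, whose libraries carry the word GFP in their descriptions, or from Sox2Hi carcinoma cells, in which the stem cell transcription factor Sox2 is high. The description of each library opens with the strain name C57. All hosts were CatchupIVM-red mice, in which a Cre and a tdTomato reporter are tied to the neutrophil gene Ly6g, and the sorted population was Tomato-positive cells from the tumour. Hosts of established tumours were left naive or were treated with anti-PDL1, which blocks a checkpoint ligand, together with a CD40 agonist, which activates antigen-presenting cells. Each graft had 3 naive and 2 treated libraries. The labels do not say that the libraries come from separate animals, and give neither ages nor doses, so p-values measure only the spread between these samples, which may be technical.

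Serine palmitoyltransferase joins serine to a fatty acyl-CoA in the endoplasmic reticulum, the rate-limiting entry to all sphingolipids, including ceramide and sphingomyelin. SPTLC1 pairs with SPTLC2 or SPTLC3 to form the catalytic core. A small subunit, SPTSSA or SPTSSB, activates the core and shapes which acyl-CoA it accepts, SPTSSB shifting it towards longer chains. The ORMDL proteins sit on the complex and inhibit it when ceramide is plentiful. In neutrophils, as in other leukocytes, sphingolipids are membrane lipids and the source of signalling lipids such as sphingosine phosphate.

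Library totals ran from 13815734 to 22986193 estimated counts. Levels are given as CPM, counts scaled to a common library size, with library factors set on expressed genes, those with a mean of at least 5 CPM, of which there were 11274. All 20 genes of a neutrophil marker list were detected in every library, at 0.907 to 3.04% of counts. Ly6g itself had group means of 2.47 and 2.40 CPM in naive control and Sox2Hi tumours and of 14.6 and 8.06 CPM in treated tumours. The 22 genes of a keratinocyte list, the cell type of the tumour, were also detected in every library, at 0.262 to 0.566% of counts in control and 0.441 to 0.623% in Sox2Hi libraries of naive hosts, and at 0.112 to 0.188% and 0.206 to 0.347% in treated tumours. Reads were also spread thinly over 1464 odorant and pheromone receptor genes that neutrophils are not known to use. The rate over those genes was taken as a background per kilobase of exon, and is given below where it reaches a large share of a member's counts.

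Sptssb (ENSMUSG00000043461; GRCm38 chr3:69819542-69859940, minus strand) encodes a small subunit, the relative of Sptssa. In control tumours it stood at 5.33, 1.61 and 2.56 CPM without and at 0.434 and 0.298 CPM with treatment. In Sox2Hi tumours it stood at 44.0, 27.0 and 40.8 CPM without and at 71.8 and 39.7 CPM with treatment. Every Sox2Hi library lay above every control library, and naive and treated libraries overlapped within the Sox2Hi grafts. The counts behind these levels were 88, 23, 47, 6 and 5 for the control grafts and 894, 490, 806, 1127 and 582 for the Sox2Hi grafts, naive libraries before treated ones. The background rate would give 26.0% of the control naive and 87.9% of the control treated counts, against 1.23% and 1.24% in the Sox2Hi groups. In control treated tumours Sptssb was therefore near the level of reads over silent genes. In bulk samples fewer cells of a type and less RNA per cell cannot be told apart.

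Group means were 3.17 ± 1.9 CPM (SD, n = 3) in control naive and 37.3 ± 9.0 CPM (SD, n = 3) in Sox2Hi naive tumours, a fitted log2 difference of 3.55. In treated tumours they were 0.366 ± 0.096 CPM (SD, n = 2) and 55.8 ± 23 CPM (SD, n = 2), a fitted log2 difference of 7.24 that rests on a control group near background. Ranked by log2 difference among 11274 genes, Sptssb stood at 22 in naive and at 4 in treated tumours. These values chose the gene and carry no test.

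**Figure D1:**
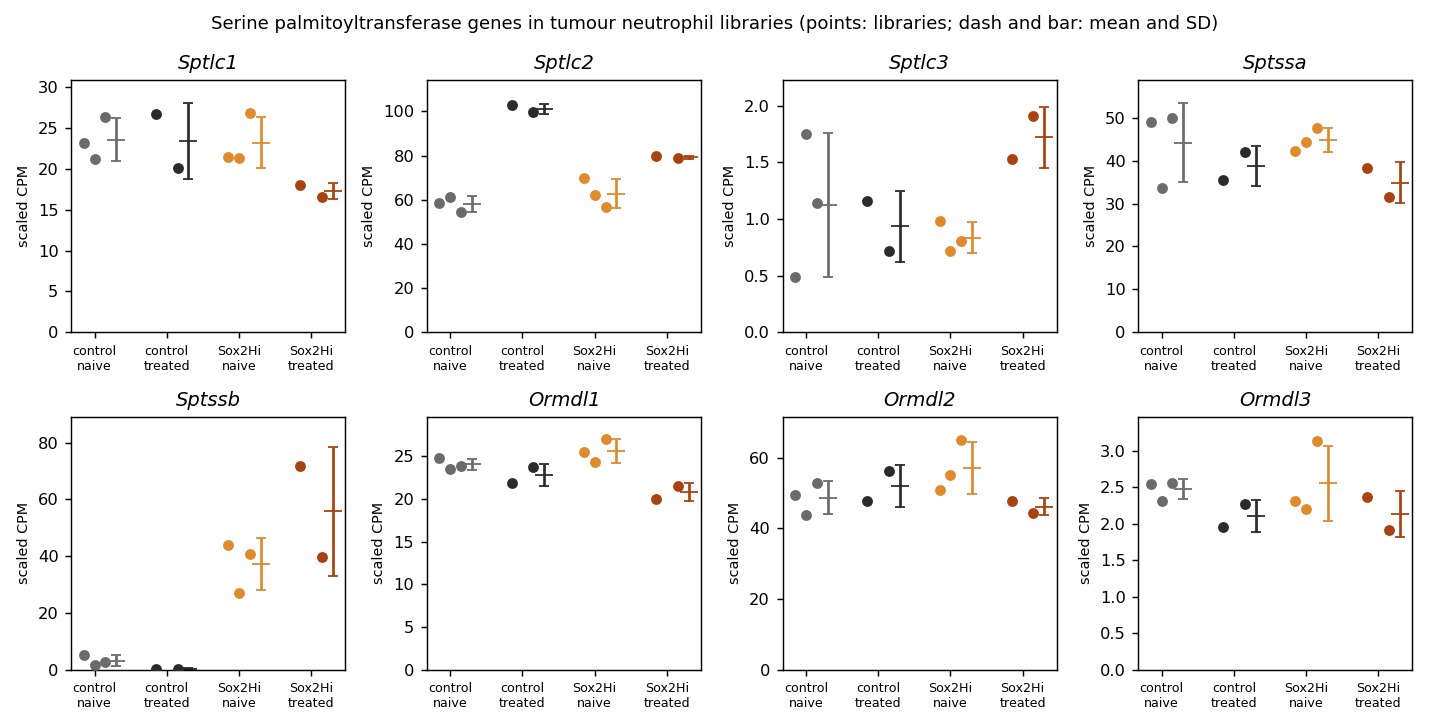
Levels of the 8 genes in scaled CPM (vertical axes, each from 0) in the 10 libraries, by group (horizontal axes); points are libraries, and the dash with its bar is the mean and SD. Sptssb runs from 0.298 to 71.8 CPM with no overlap between grafts, while for each of the other 7 genes the naive libraries of the 2 grafts overlap; the treated libraries overlap for Sptssa and Ormdl3 and not for the other 5.

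In control tumours Sptssb was lower in both treated libraries than in any naive library, with a fitted log2 change of -3.12. Leaving out each library in turn gave -3.38 to -2.52, the last without control naive library 1. With the background subtracted the fitted change was -5.89. In Sox2Hi tumours the groups overlapped and the log2 change was 0.58, which ran from 0.09 without Sox2Hi treated library 1 to 0.89 without Sox2Hi treated library 2. Both changes are given without a test, because the libraries of both grafts served to choose the gene. In addition, the control means of 3.17 and 0.366 CPM lie under the minimum of 5 CPM that Sptssb passed through its Sox2Hi level, and the treated counts were near background. The fitted difference between both treatment changes, 3.70 (3.11 to 3.89 with a library left out), carries no test either, because it uses the graft values.

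Sptssa (ENSMUSG00000044408; GRCm38 chr12:54645392-54656573, minus strand), the widely expressed small subunit, showed no such pattern. In naive tumours it stood at 48.9, 33.6 and 49.96 CPM with the control graft and at 42.3, 44.2 and 47.7 CPM with the Sox2Hi graft. In treated tumours it stood at 35.4 and 42.1 CPM against 38.3 and 31.4 CPM. The ranges of the 2 grafts overlapped in naive and in treated tumours. The log2 difference between grafts was 0.02 (SE 0.173, adjusted p = 0.964, edgeR) in naive and -0.15 (SE 0.214, adjusted p = 0.647, edgeR) in treated tumours.

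The makeup of the small subunit transcripts also differed between the grafts. Counted per kilobase of exon, Sptssb made up 8.31, 3.84 and 4.08% of small subunit transcripts in naive control tumours and 46.4, 33.7 and 41.5% in naive Sox2Hi tumours. In treated tumours it made up 1.01 and 0.585% against 60.9 and 51.2%. Sptssb thus exceeded Sptssa per kilobase in both Sox2Hi treated libraries and in no other library. This share is built on the values that chose Sptssb and was not tested.

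Some keratinocyte transcripts were higher in Sox2Hi tumours as well. Of the 21 keratinocyte genes tested, the simple epithelial keratins Krt8 and Krt18 were higher in Sox2Hi naive tumours (log2 differences 0.91 and 0.96, adjusted p = 0.0168 and 0.0131, edgeR). In treated tumours their differences were 1.28 and 1.37 (adjusted p = 0.00961 and 0.00678, edgeR), and the adhesion genes Epcam and Cdh1 also passed, at 0.88 and 1.24 (adjusted p = 0.0238 and 0.0163, edgeR). With the all-gene scaling (library factors from 29648 genes) Krt18 alone of these 4 kept its call in treated tumours; Krt8 was at 0.84 (adjusted p = 0.067), Epcam at 0.43 (adjusted p = 0.311) and Cdh1 at 0.80 (adjusted p = 0.111, edgeR). No keratinocyte gene was called lower in either comparison under the expressed-gene scaling. The 21 genes thus gave 2 calls in naive and 4 in treated tumours, all higher. Of all 11274 genes tested, 1576 were called in naive tumours, 237 of them higher, and 2353 in treated tumours, 1691 of them higher. The basal keratins Krt5 and Krt14 did not pass the test in either comparison, with log2 differences of -1.06 and -0.67 in naive tumours. Per 1000 counts of the keratinocyte list, Sptssb gave 0.487 to 1.46 counts with the control graft and 6.91 to 10.2 with the Sox2Hi graft in naive hosts, and 0.169 and 0.194 against 20.3 and 15.8 in treated hosts. Per 1000 counts of Krt8 and Krt18 it gave 1.35 to 4.07 against 12.1 to 18.4 in naive hosts, and 0.538 to 0.707 against 30.3 to 44.1 in treated hosts. The Sox2Hi libraries stayed above the control libraries on both scales. Both are built on the Sptssb counts that chose the gene and were not tested. Which cells of the sorted population carried the Sptssb transcripts was not tested.

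**Figure D2:**
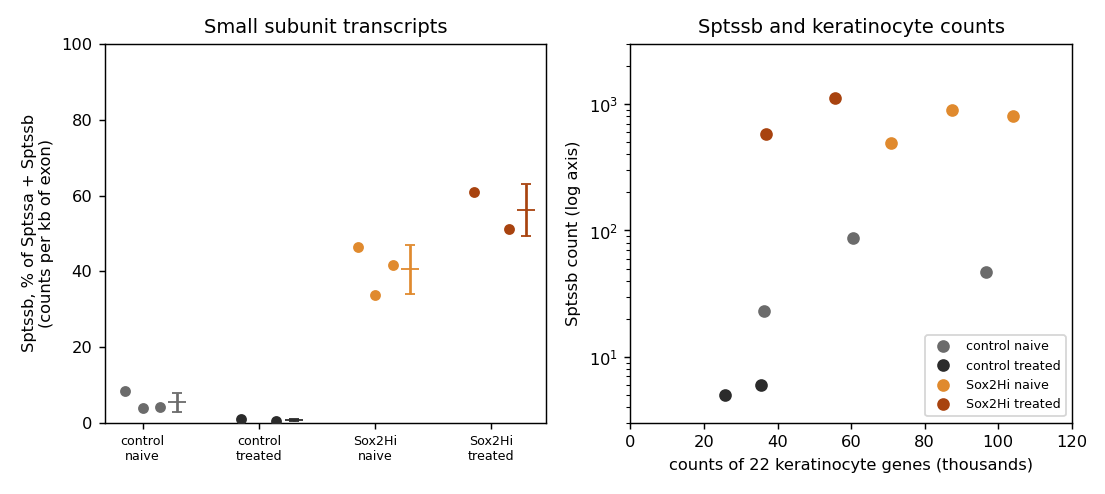
Left: Sptssb as a percent of Sptssa and Sptssb counts per kilobase of exon in each library (points), with group means and SD. Right: Sptssb counts (log axis) against the summed counts of 22 keratinocyte genes in each library; Sox2Hi libraries hold 490 to 1127 Sptssb counts and control libraries 5 to 88 over overlapping keratinocyte counts.

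The promoters of the small subunit pair and of Sptlc2 are shown because Sptssb set the grafts apart, Sptssa is its counterpart and was not called in any comparison by edgeR with expressed-gene scaling, and Sptlc2 was called with treatment in control tumours. Each run covers 300 bases around the start site on the gene's strand, mostly upstream, from RefSeq on GRCm38.p6, where all 8 members matched. Capitals mark matches on either strand to CATTGT and CTTTGT, cores of Sox factor sites, to the CCAAT box and to GGGCGG, the core of Sp1 sites.
Sptssb (chr3:69859845-69860144, minus strand): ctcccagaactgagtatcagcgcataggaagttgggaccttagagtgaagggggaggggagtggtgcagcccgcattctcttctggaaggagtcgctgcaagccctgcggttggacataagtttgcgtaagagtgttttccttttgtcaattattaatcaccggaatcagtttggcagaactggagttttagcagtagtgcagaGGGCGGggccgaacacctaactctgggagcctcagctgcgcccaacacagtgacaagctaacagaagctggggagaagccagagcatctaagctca
Sptssa (chr12:54656523-54656822, minus strand): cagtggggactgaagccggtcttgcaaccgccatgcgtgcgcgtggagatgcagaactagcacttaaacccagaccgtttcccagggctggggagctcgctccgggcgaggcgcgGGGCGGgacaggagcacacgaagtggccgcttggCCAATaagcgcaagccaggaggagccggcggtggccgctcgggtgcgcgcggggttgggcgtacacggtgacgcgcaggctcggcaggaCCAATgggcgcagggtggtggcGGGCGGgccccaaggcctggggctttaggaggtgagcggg
Sptlc2 (chr12:87388306-87388605, minus strand): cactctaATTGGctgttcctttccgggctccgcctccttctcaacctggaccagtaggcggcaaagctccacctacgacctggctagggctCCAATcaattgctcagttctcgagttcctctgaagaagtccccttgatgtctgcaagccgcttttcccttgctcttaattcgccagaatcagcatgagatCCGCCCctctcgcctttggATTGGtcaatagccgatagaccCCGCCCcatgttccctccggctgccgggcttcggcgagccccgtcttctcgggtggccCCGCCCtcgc
The Sptssb window held 1 GGGCGG, at base 205, and none of the other 3 motifs. It had 9 CpG and 52.7% G and C, against medians of 7 CpG and 52.7% over 32851 promoters. The Sptssa window held 2 CCAAT, at bases 150 and 239, and 2 GGGCGG, at bases 116 and 261, with 31 CpG and 70.0% G and C. The Sptlc2 window held 3 CCAAT and 3 GGGCGG with 19 CpG. Among the members, CATTGT occurred in Sptlc3 alone and CTTTGT in Sptlc1 and Sptlc3. Of all promoters of this length, 12.6% held CATTGT, 18.7% CTTTGT, 37.4% CCAAT and 35.7% GGGCGG, and a match or its absence in this window is a description only.

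Sptlc2 (ENSMUSG00000021036; GRCm38 chr12:87305058-87388355, minus strand), the main catalytic partner of SPTLC1, rose with treatment in control tumours. It stood at 58.7, 61.4 and 54.3 CPM without and at 103 and 99.5 CPM with treatment, without overlap. The log2 change was 0.80 (SE 0.139, adjusted p = 0.000995, edgeR). Scaling by library totals alone gave 0.25, which missed the threshold (adjusted p = 0.16, edgeR). In Sox2Hi tumours it stood at 69.6, 62.1 and 56.6 CPM in naive and 79.7 and 78.7 CPM in treated libraries, also without overlap, with a log2 change of 0.34 that missed the threshold (SE 0.140, adjusted p = 0.103, edgeR). In control tumours 19 of the 20 neutrophil markers were also called higher with treatment, where 24.1% of all genes were. Their part in the Sptlc2 change was not tested. The difference between the treatment changes was -0.46 (SE 0.199, adjusted p = 0.134, edgeR). Between the grafts Sptlc2 differed by 0.11 (SE 0.126, adjusted p = 0.654, edgeR) in naive tumours and by -0.35 (SE 0.154, adjusted p = 0.127, edgeR) in treated tumours.

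Sptlc1 (ENSMUSG00000021468; GRCm38 chr13:53332748-53377397, minus strand), the subunit common to every form of the enzyme, had means of 23.5 ± 2.6 and 23.2 ± 3.1 CPM (SD, n = 3 each) in naive control and Sox2Hi tumours, and of 23.4 ± 4.6 and 17.3 ± 0.99 CPM (SD, n = 2 each) in treated tumours. The 2 Sox2Hi treated libraries, at 18.0 and 16.6 CPM, lay below all others. Their log2 difference from Sox2Hi naive was -0.43 (SE 0.184, adjusted p = 0.113, edgeR), and from control treated -0.44 (SE 0.201, adjusted p = 0.145, edgeR). Neither passed the threshold. In naive tumours the graft difference was -0.02 (SE 0.162, adjusted p = 0.953, edgeR).

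Sptlc3 (ENSMUSG00000039092; GRCm38 chr2:139493913-139637674, plus strand), the alternative catalytic subunit of epithelia, stood at 0.485 to 1.91 CPM, with 8 to 28 counts per library. The background rate accounts for 53.8% of its counts in control treated libraries and 118% in control naive libraries, so its level could not be told from that of silent genes in control naive tumours. It was too low for the test.

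Ormdl1 and Ormdl2, 2 of the ORMDL regulators, did not pass the edgeR test between the grafts. Ormdl1 (ENSMUSG00000026097; GRCm38 chr1:53297095-53310309, plus strand) had means of 24.1 ± 0.64 and 25.6 ± 1.4 CPM (SD, n = 3 each) in naive control and Sox2Hi tumours, and of 22.8 ± 1.3 and 20.8 ± 1.0 CPM (SD, n = 2 each) in treated tumours. Ormdl2 (ENSMUSG00000025353; GRCm38 chr10:128817902-128821645, minus strand) had means of 48.7 ± 4.7 and 57.1 ± 7.3 CPM (SD, n = 3 each), and of 52.0 ± 5.9 and 46.1 ± 2.5 CPM (SD, n = 2 each) in treated tumours. Their graft differences in naive tumours were 0.09 (SE 0.121, adjusted p = 0.718, edgeR) and 0.23 (SE 0.144, adjusted p = 0.36, edgeR). In treated tumours these were -0.14 (SE 0.150, adjusted p = 0.55, edgeR) and -0.17 (SE 0.177, adjusted p = 0.517, edgeR). Ormdl3 (ENSMUSG00000038150; GRCm38 chr11:98581256-98587368, minus strand) had means of 2.11 to 2.55 CPM in the 4 groups, with background at 17.8 to 40.3% of its counts, and fell under the minimum for the test.

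Outside Sptssb, edgeR with expressed-gene scaling called none of the 5 other members tested between the grafts, and Sptlc3 and Ormdl3 were too low for that test. In naive tumours 0 were called, where 14.0% of all genes were, and none had an unadjusted p under 0.05. That fit did not pair the replicates. The naive libraries alone, with a block on the replicate number that pairs them, also called 0 by edgeR. There 1 of the 5 had an unadjusted p under 0.05, and 22.0% of all genes were called. DESeq2 and limma-voom also called 0, where DESeq2 called 16.6% and limma-voom 36.6% of all genes. In the edgeR fit of all 10 libraries the log2 differences of the 5 ran from -0.02 to 0.23. Their median was 0.09 against -0.05 for all genes tested. In treated tumours 0 of 5 were called by edgeR against 20.9% of all genes, with 1 at an unadjusted p under 0.05; limma-voom called 0, against 15.8% of all genes, and DESeq2 called Sptlc1 and Sptlc2 lower, against 16.2%. Their log2 differences ran from -0.44 to -0.14, with a median of -0.17 against 0.04 for all genes. For the difference between the treatment changes 0 of 5 were called by edgeR against 19.8% of all genes, with 1 at an unadjusted p under 0.05; limma-voom called 0, against 24.4% of all genes, and DESeq2 called Ormdl2 and Sptlc2 lower, against 15.2%. In data simulated on the naive comparison, 62% of the 100 genes changed by 1 on the log2 scale were recovered by edgeR, and 21% in the treated comparison, so a change of that size in the treated comparison would often have been missed.

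Of the 5 members other than Sptssb that were tested, treatment in control tumours called 1, Sptlc2, where 57.3% of all genes were called, 24.1% higher and 33.1% lower. The median log2 change of the 5 was -0.01 against -0.18 for all genes tested. With the all-gene scaling Ormdl2 was also called higher (log2 change 0.64, adjusted p = 0.0359, edgeR), against 0.09 (adjusted p = 0.629) with the expressed-gene scaling. In Sox2Hi tumours edgeR called 0 of the same 5 against 21.6% of all genes; 3 had an unadjusted p under 0.05, limma-voom called 0, against 33.4% of all genes, and DESeq2 called Sptlc1 lower, against 14.8%. The median log2 change of the 5 was -0.31, against 0.09 for all genes tested.

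The direction of small changes depended on the scaling. Library factors set on 29648 genes, including genes of very low count, moved the median gene by 0.55 for treatment in control, -0.27 for treatment in Sox2Hi, 0.37 for graft in naive, -0.45 for graft in treated tumours and -0.82 for the difference between treatment changes. Under that scaling, as with DESeq2, Sptlc1 and Sptlc2 were called lower in Sox2Hi treated than control treated tumours, 2 of 7 members where 9.57% of all genes were called lower. Ormdl1, Ormdl2, Sptlc1 and Sptlc2 were called lower for the difference between treatment changes, 4 of 7 where 16.2% were called lower. In naive tumours it called 0 of 7, where 1.87% were called. The Sptssb graft differences were 3.91 and 6.80 under it, in the same direction as above.

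**Figure D3:**
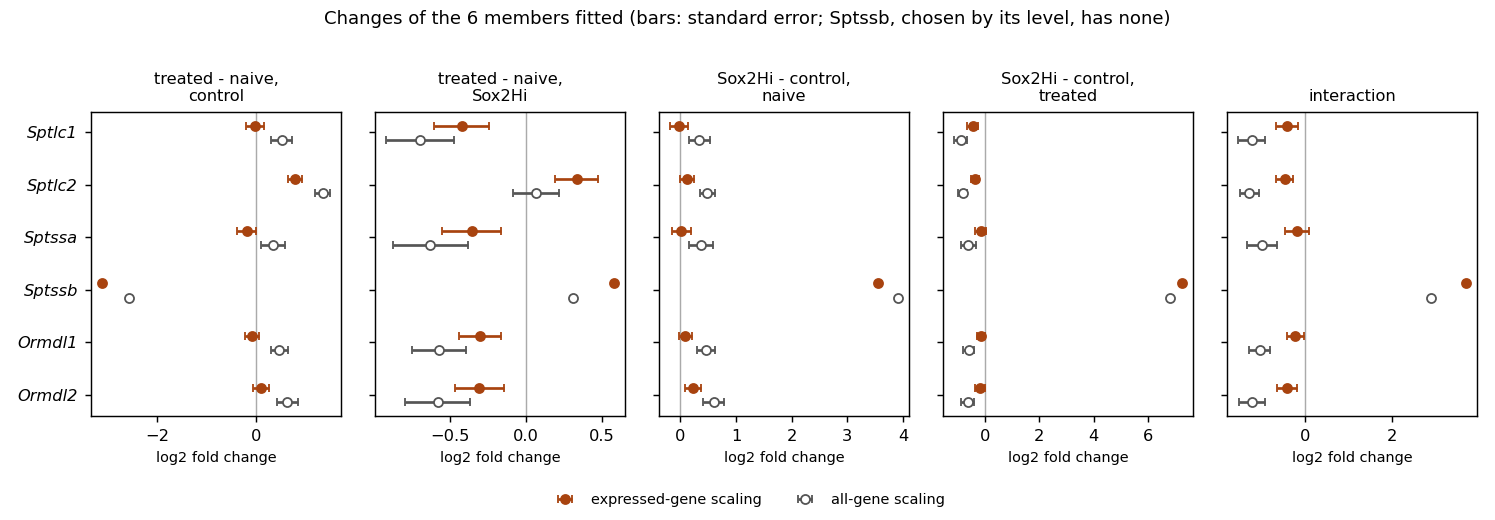
Log2 fold changes (horizontal axes, each panel with its own range) of the 6 members fitted, under the expressed-gene scaling (filled) and the all-gene scaling (open), with standard errors, except for Sptssb, which carries no test. Sptssb lies at 3.55 and 7.24 between grafts, and no other member lies past 0.44 from 0 there under the expressed-gene scaling.

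Per kilobase of exon, the means of the other 7 members stood in the same order in all 4 groups, while Sptssb changed its place. In control naive tumours Ormdl2 (29.1 ± 2.8 CPM per kb, SD, n = 3) and Sptssa (29.1 ± 6.0) led with overlapping ranges. Sptlc2 (7.16 ± 0.44) and Sptlc1 (6.62 ± 0.74) followed, also overlapping, then Ormdl1 at 5.11 ± 0.14. Sptssb (1.73 ± 1.1) and Ormdl3 (1.13 ± 0.063) overlapped, with Sptlc3 lowest at 0.396 ± 0.22. In control treated tumours Sptssb was the lowest of the 8, at 0.200 ± 0.053 CPM per kb (SD, n = 2). In Sox2Hi naive tumours it came next after Ormdl2 and Sptssa, at 20.4 ± 4.9 CPM per kb (SD, n = 3), without overlap with Sptlc2 at 7.74 ± 0.81. In Sox2Hi treated tumours its mean was the highest, at 30.5 ± 12 CPM per kb (SD, n = 2), overlapping Ormdl2 at 27.6 ± 1.5.

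Across the 10 libraries, expressed genes were ranked by likeness to Sptssb, as Pearson's r of log2(CPM + 1). Genes with Gm, Rik or clone names were left out of the list. The 10 nearest were Upk3bl, a uroplakin relative (r = 0.949), Hebp2 (0.921), the tetraspanin Tspan1 (0.916), Dennd2d (0.914), the cornified envelope gene Ppl (0.912), Aspa (0.907), Pmm1 (0.904), the mucosal keratin Krt4 (0.904), Oxr1 (0.901) and Glg1 (0.899). The libraries fall into separate graft groups, so r describes mainly that split, and it rests on the Sptssb values that chose the gene. Krt4 had means of 1.59 and 10.1 CPM in naive control and Sox2Hi tumours, and of 0.472 and 12.3 CPM in treated tumours. Among the other members r was 0.129 for Ormdl2, 0.02 for Sptssa, -0.01 for Ormdl1, -0.30 for Sptlc2 and -0.40 for Sptlc1.

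Neither tested neighbour of Sptssb on chromosome 3 passed the test between the grafts. Of the 4 protein-coding genes within 500 kb, Ppm1l, B3galnt1, Nmd3 and Otol1, only Ppm1l and Nmd3 were expressed enough to test. Nmd3, a ribosome export factor, differed between grafts by 0.12 (SE 0.164, adjusted p = 0.708, edgeR) in naive and 0.21 (SE 0.202, adjusted p = 0.494, edgeR) in treated tumours. Ppm1l, a phosphatase of the endoplasmic reticulum, differed by -0.41 (SE 0.292, adjusted p = 0.433, edgeR) and 0.93 (SE 0.388, adjusted p = 0.109, edgeR), with background at 43.1 to 74.2% of its counts.

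The sphingolipid genes around the enzyme were taken as 53 genes in 5 lists, of which 38 were tested. Treatment in control tumours called 23 of 38, near the 57.3% of all genes, with 12 higher and 11 lower. The all-gene scaling called 19 higher and 3 lower of 53, where 18.7% of all genes were higher and 15.3% lower. Library totals called 3 higher and 21 lower of 38, where 10.3% were higher and 57.2% lower. Cell type markers follow for the same treatment, where 24.1% of all genes were called higher and 33.1% lower. In control tumours the neutrophil list made up 0.907 to 1.31% of counts in naive and 2.55 to 3.04% in treated libraries, with 19 of 20 genes called higher. The keratinocyte list made up 0.262 to 0.566% in naive and 0.112 to 0.188% in treated libraries. Of its tested genes 8 of 21 were called lower, near the share of all genes. A fibroblast and endothelial list made up 0.0341 to 0.0912% in naive and 0.00834 to 0.00995% in treated libraries, with 7 of 8 tested genes called lower. An erythroid list made up 0.0628 to 0.166% in naive and 0.00381 to 0.0227% in treated libraries, with 3 of 4 tested genes called lower. Of the genes tested, 4 of 6 in a T and NK cell list were called higher and 3 of 3 in a mast cell list lower, with 1 of 11 macrophage and dendritic cell genes called in each direction and 1 of 6 B and plasma cell genes higher. No marker of these lists was at 0 in any library, except 1 B and plasma cell gene, and their part in the pathway changes was not tested. The 3 largest changes among genes that averaged 10 CPM or more were in Cers6, Phgdh and Sgms2. Cers6, a ceramide synthase, stood at 58.1, 69.7 and 48.4 CPM without and 244 and 195 CPM with treatment, and rose by 1.90 (SE 0.192, adjusted p = 8.5e-05, edgeR). Sgms2, a sphingomyelin synthase of the plasma membrane, stood at 1060, 1262 and 883 CPM against 2845 and 2719 CPM, and rose by 1.38 (SE 0.210, adjusted p = 0.00055, edgeR). Phgdh, the entry enzyme of serine synthesis, stood at 21.1, 17.2 and 28.6 CPM against 9.25 and 5.84 CPM, and fell by 1.57 (SE 0.292, adjusted p = 0.00136, edgeR). Naive and treated libraries did not overlap for any of the 3.

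By list, treatment in control tumours called 5 of 7 genes of ceramide synthesis (3 higher, 2 lower), 7 of 8 genes that convert or move ceramide (6 higher, 1 lower), 5 of 10 genes of ceramide release and breakdown (2 higher, 3 lower), 2 of 4 sphingosine phosphate genes (1 in each direction), and 4 of 9 genes that supply serine and acyl-CoA (all lower). Of all genes 57.3% were called, 24.1% higher and 33.1% lower. The list medians were -0.002, 0.66, -0.16, 0.06 and -0.66, against -0.18 for all genes. Psap, which encodes the precursor of the lysosomal saposins, rose, and the ceramidases Asah2 and Acer2 fell, named here after their values were seen. Background made up 53 and 56% of Asah2 counts in control naive and treated libraries, and 39 and 25% of Acer2 counts. With the background subtracted Asah2 kept its call and Acer2 lost it. With the all-gene scaling 8 of the 23 calls were lost, all of them lower: Cers4, Cers5, Cerk, Smpd4, Acer2, Sphk1, Psat1 and Shmt2. Of the supply genes this left Phgdh and Fasn, with Psat1 at an adjusted p of 0.103 and Shmt2 at 0.0525 (edgeR). Acsl1, another supply gene, was called higher under that scaling (log2 change 1.25, adjusted p = 0.00172, edgeR). With the expressed-gene scaling it was at 0.67 (adjusted p = 0.0505, edgeR).

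Treatment in Sox2Hi tumours called 7 of 38, near the 21.6% of all genes, with 2 higher and 5 lower. Of all 11274 genes tested, 1692 were called higher and 741 lower. The neutrophil list made up 0.933 to 1.44% of counts in naive and 1.62 to 1.95% in treated libraries, with 12 of 20 genes called higher, and 4 of 21 keratinocyte and 4 of 8 fibroblast and endothelial genes were called lower. In the same comparison 4 of 4 erythroid genes were called lower, 2 of 6 T and NK cell genes higher and 1 of 11 macrophage and dendritic cell genes in each direction. The part of these markers was not tested. Cers6 rose by 1.36 (SE 0.191, adjusted p = 0.00171, edgeR), from 59.2 ± 9.1 CPM (SD, n = 3) to 152 ± 5.6 CPM (SD, n = 2). Phgdh fell by 1.47 (SE 0.284, adjusted p = 0.00815, edgeR), from 34.2 ± 7.3 CPM (SD, n = 3) to 12.4 ± 2.3 CPM (SD, n = 2). Psat1, the next enzyme of serine synthesis, fell by 0.95 (SE 0.270, adjusted p = 0.0316, edgeR). The supply genes again gave 4 lower calls of 9, 3 of which, Phgdh, Psat1 and Shmt2, were also called lower in control tumours. With the all-gene scaling Psat1 and Shmt2 were called in neither graft. The count of 7 fell to as few as 1 when a library was left out, without Sox2Hi treated library 2, where Cers6 remained. It was 2 without Sox2Hi naive library 3 or Sox2Hi treated library 1, and 3 without control naive library 1 or Sox2Hi naive library 1 or 2. The all-gene scaling called 1 higher and 1 lower of 53, where 3.61% of all genes were called, and library totals 1 higher and 7 lower of 38, where 26.8% were.

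Between the grafts, in naive tumours 3 of 38 were called, where 14.0% of all genes were. Cers2, a ceramide synthase for very long chains, rose by 0.57 (SE 0.135, adjusted p = 0.0205, edgeR), from 70.9, 74.7 and 72.1 CPM to 99.9, 108 and 116 CPM. Acer2 and Asah2 fell. Background made up 52.6 and 42.0% of Asah2 counts in control and Sox2Hi naive libraries, and 38.8 and 36.5% of Acer2 counts. With the background subtracted Cers2 alone was called, where 7.20% of all genes were. The naive libraries alone, with a block on the replicate number that pairs them, called 7, where 22.0% of all genes were called. Of these, 5 were higher and 2 lower; Cers2 and Acer2 were among them and Asah2 was not. limma-voom called 14, where 36.6% were called. The edgeR count was 0 without control naive library 1 or Sox2Hi naive library 2 or 3 (3, 8 and 6 at an unadjusted p under 0.05), 1 without control naive library 2, Sox2Hi naive library 1 or Sox2Hi treated library 2, and 5 without control naive library 3. The all-gene scaling called 4 higher and 0 lower of 53, where 1.87% of all genes were called, and Acer2 and Asah2 were not among them. Library totals called 3 higher and 0 lower of 38, where 8.91% were called.

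In treated tumours 8 of 38 were called, 4 each way, near the 20.9% of all genes. The all-gene scaling called 1 higher and 10 lower of 53, where 13.7% of all genes were called, and RLE factors 2 higher and 4 lower of 38, where 20.4% were. Library totals tipped the other way, with 10 higher and 1 lower of 38, where 25.8% of all genes were higher and 1.58% lower. Sgms2 was lower in Sox2Hi tumours by a log2 value of -0.99 (SE 0.236, adjusted p = 0.0178, edgeR), at 1232 and 1570 CPM against 2845 and 2719 CPM. Col4a3bp, the ceramide transfer protein, was lower by -0.68 (SE 0.147, adjusted p = 0.0129, edgeR), at 36.5 and 33.0 CPM against 58.1 and 53.6 CPM. Degs1, the desaturase that makes ceramide, was lower by -0.57 (SE 0.181, adjusted p = 0.0467, edgeR), at 224 and 233 CPM against 287 and 392 CPM. Degs1 lost its call under 11 of the 21 alternatives, with an adjusted p of 0.056 in limma-voom and 0.36 with library totals (edgeR). Sgms2 and Col4a3bp each lost theirs under 3 of the 21. The neutrophil list made up 1.62 to 1.95% of counts in Sox2Hi treated and 2.55 to 3.04% in control treated libraries, with 9 of 20 genes called lower. In the same comparison 4 of 21 keratinocyte, 2 of 8 fibroblast and endothelial and 2 of 3 mast cell genes were called higher. Of all 11274 genes tested there, 1691 were called higher and 662 lower. The part of these markers in the differences was not tested. The count was 1 without control treated library 2 or Sox2Hi treated library 1, 3 without Sox2Hi treated library 2, 4 without control naive library 1 or Sox2Hi naive library 2, and 5 without control treated library 1 or Sox2Hi naive library 1 or 3.

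**Figure D4:**
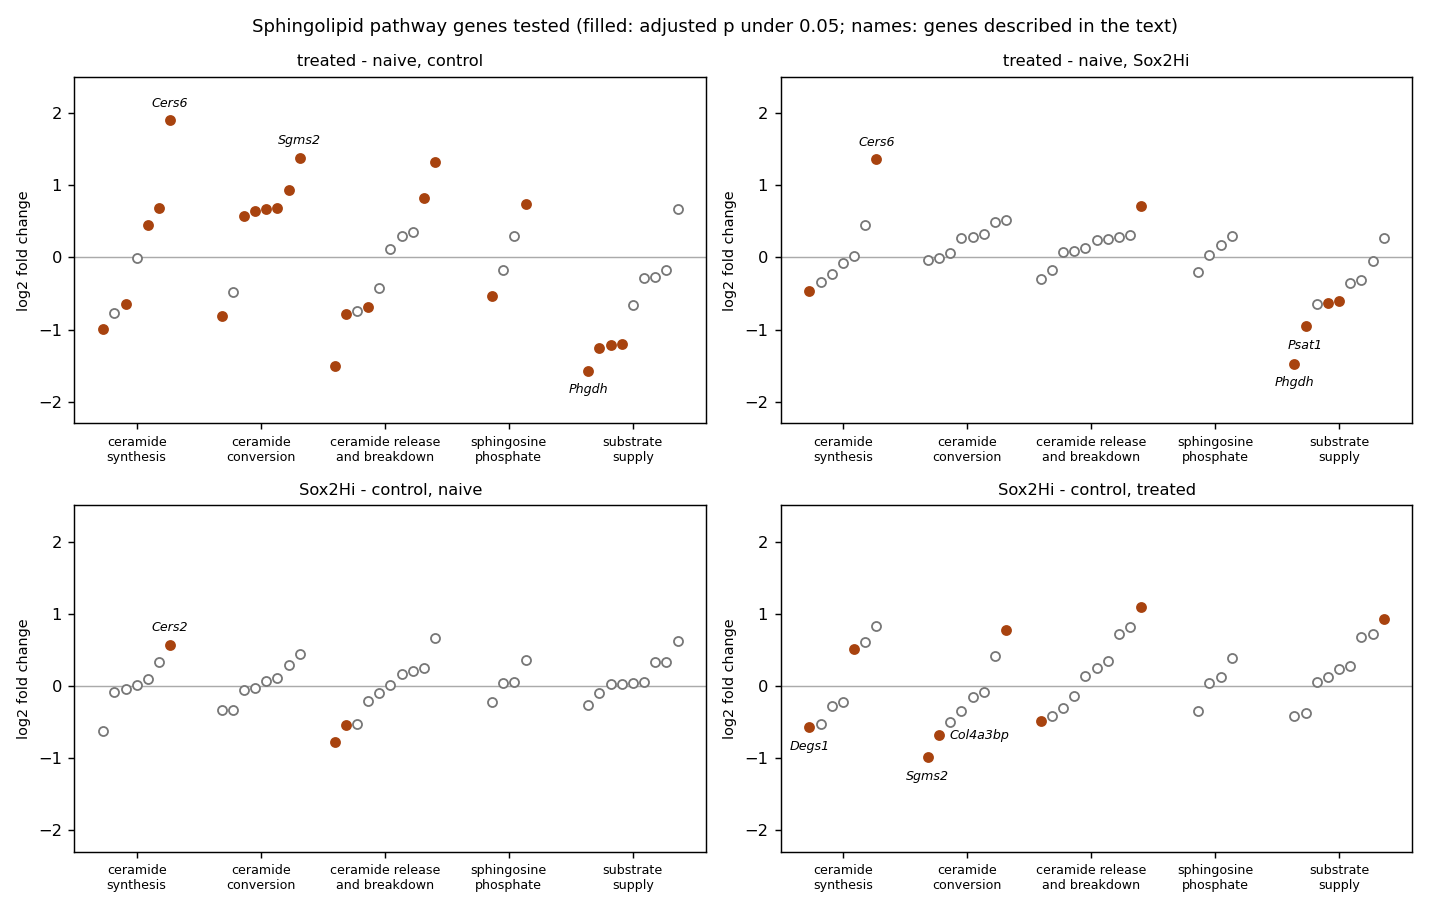
Log2 fold changes (vertical axes) of the 38 tested sphingolipid genes by list (horizontal axes) in 4 comparisons; filled points passed an adjusted p of 0.05 in edgeR, open points did not. Treatment in control tumours has 23 filled points, and the graft comparisons 3 and 8.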

How the data were processed

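The deposited table holds estimated counts per gene, made by the authors with kallisto 0.44.0 on mm10, per the submitters' processing notes; annotation and strand setting are not given in the sources used here. The values are whole numbers. RNA was made into libraries with a low-input kit, per the labels. Rows of 92 ERCC controls and 4 transgenes were left out (at most 0.00277% of counts). Of 55385 mouse genes, 55144 matched GENCODE M21. The 11274 genes that averaged 5 CPM or more were fitted over all 10 libraries and 4 groups with edgeR 4.0.16 (TMM factors, quasi-likelihood test, Benjamini-Hochberg, called under 0.05) in R 4.3.3; limma 3.58.1 and DESeq2 1.42.0 were alternatives. The tests were tested on simulated data. Replicates differed by at least 12.5 times the counting noise (chi-square per degree of freedom).

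The members, gene lists and tests were chosen with earlier results of these data known. The expressed-gene scaling replaces factors set on 29648 genes used in earlier work on these data; other filters, factors, replicate blocks, leaving out each library and subtracting the background were also tried. Named pathway genes are, per comparison, the 3 called genes of largest change with a mean of at least 10 CPM. Naive libraries with the same number in their titles deviated together across grafts (correlations 0.273, 0.325 and 0.474), so the numbers were taken to pair them; between naive and treated libraries that share a title number correlations ran from -0.28 to 0.246.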

Additional observations from a re-analysis of the deposited data

Results flagged for a closer look

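For 3 sphingolipid genes the treatment change differed between the grafts by the test of the difference itself, as treatment change in Sox2Hi minus treatment change in control tumours (edgeR quasi-likelihood, adjusted over all genes tested). The log2 difference was -1.06 for Sgms2 (SE 0.302, adjusted p = 0.0298), -0.79 for Cers2 (SE 0.214, adjusted p = 0.0231) and -0.97 for Col4a3bp (SE 0.190, adjusted p = 0.00418). With treatment, Sgms2 went from 1068 to 2782 CPM with the control graft, and from 1123 to 1401 CPM with the Sox2Hi graft. Col4a3bp went from 29.2 to 55.9 CPM and from 35.5 to 34.8 CPM. In the same order Cers2 went from 72.6 to 99.4 CPM and from 108 to 85.3 CPM. The neutrophil marker list made up 0.907 to 1.31% of counts in control naive and 2.55 to 3.04% in control treated libraries, and 0.933 to 1.44% and 1.62 to 1.95% with the Sox2Hi graft. Of its 20 genes 2 were called lower by the same test of the difference, where 2.84% of all genes were. The part of the list in these differences was not tested. Leaving out control naive library 1 or Sox2Hi treated library 1 ended the call for Sgms2 (adjusted p = 0.066 and 0.13) and for Cers2 (0.059 and 0.11), as did a block on the description number (0.063 and 0.06). Sgms2 also lost it without control naive library 3 (0.053) or Sox2Hi naive library 1 (0.067) and with the background subtracted (0.083), and Cers2 without Sox2Hi naive library 2 (0.052) or 3 (0.057) and with library totals (0.094). Col4a3bp passed under every alternative run. In all, 9 of the 38 pathway genes tested passed that test, where 19.8% of all genes did, 4 with a higher and 5 with a lower change in Sox2Hi tumours; the all-gene scaling gave 1 and 17 of 53, where 27.5% of all genes passed, RLE factors 2 and 8 of 38 (24.2%), and library totals 6 and 2 of 38 (20.2%). Without control naive library 1 or Sox2Hi treated library 1 the count was 3.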

How the results depend on the processing

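The Sptssb graft differences kept their direction under each alternative run, and leaving out each library in turn gave 3.33 to 4.14 in naive and 6.75 to 7.51 in treated tumours. The cause of the changes below was not tested, beyond the shift of the median gene given above. In parentheses after a count is the share of all genes called in that setting. Of the members other than Sptssb, whose change there carries no test, treatment in control tumours called 1, Sptlc2. This was also 1 with limma-voom (59.8%). It was 2, Ormdl2 and Sptlc2, with all-gene scaling (34.0%) and all genes with a count (14.7%). Library totals (67.5%, with 57.2% lower) called Ormdl1, Sptlc1 and Sptssa, all lower. Members called for treatment in Sox2Hi tumours were 4 with library totals (26.8%) and 1 with DESeq2 (27.1%). For graft in treated tumours 2 were called with all-gene scaling (13.7%), RLE factors (20.4%), all genes with a count (5.94%), a minimum of 1 CPM (19.4%), and DESeq2 (27.9%). For the difference between treatment changes 4 were called with all-gene scaling (27.5%), all genes (12.3%) and 1 CPM (36.0%), and 2 with RLE factors (24.2%) and DESeq2 (29.8%); leaving out a library gave 0 to 1, the 1 being Sptlc2 without control naive library 2. Pathway genes called for treatment in Sox2Hi tumours were 2 with all-gene scaling (3.61%), 3 with all genes (1.69%) and 3 with a replicate block by title number (17.7%), and 1 to 7 with a library left out. For graft in naive tumours the counts were 1 with RLE factors (9.49%), 5 with 1 CPM (5.25%), 6 with DESeq2 (16.6%), 14 with limma-voom (36.6%), 7 with the replicate block on naive libraries alone (22.0%), 0 with the groups fitted alone (0.160%; 13 at an unadjusted p under 0.05 in edgeR), 1 with background subtracted (7.20%), and 0 to 5 with a library left out. For graft in treated tumours they were 5 with limma-voom (15.8%), 1 with the groups alone (7.41%), 2 with background subtracted (8.08%), and 1 to 9 with a library left out. For the difference between treatment changes they were 18 with all-gene scaling (27.5%), 20 with all genes (12.3%), 16 with 1 CPM (36.0%), 3 with background subtracted (11.6%), and 3 to 10 with a library left out (3 without control naive library 1 or Sox2Hi treated library 1). The replicate block changed no member call. Signs turned for small member changes. For treatment in control tumours, Sptlc1 became 0.52 with all-gene scaling, 0.14 with RLE factors and DESeq2, 0.62 with all genes, 0.36 with 1 CPM, 0.08 with the title block and 0.01 with background subtracted (-0.11 to 0.32 with a library left out). Sptssa became 0.35, 0.44 and 0.19 with all-gene scaling, all genes and 1 CPM (-0.31 to 0.05), Ormdl1 0.47, 0.58 and 0.31 with the same and 0.07 with RLE factors and DESeq2 (-0.08 to 0.09), and Ormdl2 -0.46 with library totals. For graft in naive tumours, Sptlc1 became 0.34 with all-gene scaling, 0.42 with all genes, 0.26 with 1 CPM, 0.06 with RLE factors and DESeq2, 0.10 with library totals, and 0.03 with the naive replicate block and the groups alone (-0.14 to 0.07), and Sptssa -0.12 with limma-voom (-0.07 to 0.12). With library totals, graft in treated tumours became 0.18 for Sptssa, 0.18 for Ormdl1 and 0.15 for Ormdl2, the Sptssa difference between treatment changes 0.05, and Sptlc2 for treatment in Sox2Hi tumours -0.002 (-0.03 with all genes). Depth limits Sptlc3, with 8 to 28 counts per library, and Sptssb in control treated tumours, with 5 and 6.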
